A study of Mus musculus with 300 samples.

Results

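The results concern 6 genes of the Bcl2 family, Bcl2, Bcl2l1, Mcl1, Bcl2l11, Bax and Bak1, chosen by name out of the 13737 features of a single-cell expression matrix. All 6 had a row in the matrix and all 6 passed the filter of detection in at least 10% of cells. Cells of the early thymic progenitor (ETP) population, the earliest precursors of T cells in the thymus, were sorted singly into plates from the embryonic day 15.5 thymus of 5x polychromILC mice and profiled with Smart-seq2. This strain carries reporter alleles at loci of lymphoid transcription factors, among them Id2, Gata3, Rora and Bcl11b, and every cell of the study comes from it. The labels name 1 group, no treatment and 4 mouse ids, and the matrix holds 67 cells from mouse 1A, 69 from 1B, 64 from 2A and 61 from 2B. Whether an id stands for 1 embryo or a pool, and how the ETP gate was set, the sources used here do not give, so the 4 ids may be technical replicates. In most fits limma pooled the error over all genes, so a p-value does not then measure a gene's own spread between ids.

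The Bcl2 family decides whether the outer membrane of the mitochondrion stays closed. Bcl2, Bcl-xL (encoded by Bcl2l1) and Mcl1 hold the pore-forming members Bax and Bak1 inactive, and the BH3-only protein Bim (encoded by Bcl2l11) binds the survival members and frees or activates the pore formers, after which cytochrome c leaves the mitochondrion and caspases are cleaved. In early thymocytes, signals through the interleukin-7 receptor (Il7r) and the stem cell factor receptor Kit are known to sustain survival, and Il2rb, a chain of the interleukin-2 and interleukin-15 receptors, does so in natural killer (NK) cells.

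The labelled population was checked against marker genes. Most progenitor and early T genes were widely detected, with Kit in 90.8% of cells, Cd34 in 94.6% and Notch1 in 100%. Of the early T list, Il2ra was detected in 54.02% of cells, below the median of 57.9% over all features. Cd3e, a chain of the mature T-cell receptor complex, was detected in 6.51%. Several markers of other types were widely detected too, Nkg7 (NK cells) in 96.9%, Bst2 (dendritic cells) in 93.9%, Cpa3 (mast cells) in 76.6% and Apoe (macrophages) in 72.03%. Each of these was the most detected gene of its marker list. The median gene of those lists was detected in 23.8% (NK), 57.5% (dendritic), 29.1% (mast cell or basophil) and 18.2% (macrophage) of cells. For the progenitor and early T lists the median was 90.8% and 81.8%. At a level of at least 10, in the linear units defined below, the shares were 81.6% for Kit, 73.6% for Cd34, 96.2% for Notch1, 33.7% for Il2ra and 3.07% for Cd3e, against 85.8% for Nkg7, 86.59% for Bst2, 57.5% for Cpa3 and 43.3% for Apoe. In 79 of 261 cells, at least 50% of the markers of another type stood at a level of at least 10: 26 cells for NK cells and innate lymphoid cells (ILCs), 43 for dendritic cells, 13 for mast cells or basophils and 9 for macrophages, some cells counting for more than 1 list. These cells were unevenly spread over the ids, with 26 in 1A, 19 in 1B, 24 in 2A and 10 in 2B. The median number of detected genes per cell was 7518 in 1A, 7544 in 1B, 7787 in 2A and 8243 in 2B. The deposited matrix fell into 4 sets of cells, recognised by exactly shared values, in which each gene has its own repeated lowest value; that value was read as no reads, detection means a value above it, and a gene's level is the linear distance above it in the deposited normalized units. Ids 2A and 2B share 2 of these sets, while most cells of 1A and of 1B lie in 1 set each. The labels also give 2 pools. All cells of 1A and 1B are in the first and all of 2B in the second, while 2A has 29 cells in the first and 35 in the second.

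The 6 genes lie on 5 chromosomes of GRCm38, all protein-coding, in the GENCODE vM21 annotation. Bcl2 spans chr1:106538178-106714274 on the minus strand, Bcl2l1 chr2:152780668-152831728 on the minus strand, and Mcl1 chr3:95658788-95663176 on the plus strand. Bcl2l11 spans chr2:128126038-128162547 on the plus strand, Bax chr7:45461697-45466898 and Bak1 chr17:27019810-27029009, both on the minus strand. Exons of Bcl2 overlap the antisense gene D630008O14Rik, exons of Bax overlap Gm45808 on the same strand, and exons of Bak1 overlap Ggnbp1 on the opposite strand. Strand would not separate Gm45808 from Bax. For the partners of Bcl2 and Bak1, the sources used here do not state whether the counting used strand. Reads inside the shared stretches can therefore not be assigned with certainty to the partner or to the gene.

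The promoters of Bcl2, the 1 gene of the 6 whose level passed the test with the cell cycle, and of Mcl1, the 1 gene of the 6 with other genes past the threshold, are shown as the 250 bases before the RefSeq transcription start (GRCm38.p6). Capitals mark the GC box GGGCGG on either strand, the recognition sequence of Sp1-type factors. The Bcl2 window is chr1:106714291-106714540 on the minus strand and the Mcl1 window chr3:95658471-95658720 on the plus strand, both printed 5′ to 3′ along the gene.
Bcl2: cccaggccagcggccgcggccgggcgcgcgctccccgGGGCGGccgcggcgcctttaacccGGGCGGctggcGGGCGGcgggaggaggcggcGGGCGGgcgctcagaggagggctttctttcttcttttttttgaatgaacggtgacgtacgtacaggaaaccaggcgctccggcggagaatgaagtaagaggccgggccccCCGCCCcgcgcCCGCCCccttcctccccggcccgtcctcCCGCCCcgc
Mcl1: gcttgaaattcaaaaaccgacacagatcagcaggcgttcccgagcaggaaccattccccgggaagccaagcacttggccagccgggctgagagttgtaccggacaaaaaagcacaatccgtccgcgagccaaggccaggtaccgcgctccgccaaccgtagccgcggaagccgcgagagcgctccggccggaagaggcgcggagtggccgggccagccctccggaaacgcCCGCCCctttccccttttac
The Bcl2 window held 7 GC boxes at 74.8% G and C, and the Mcl1 window 1 at 64.4%. Of 32851 promoter windows of this length, 32.7% held at least 1 GC box. The letters TTCCCGC, an E2F motif found in 3.82% of windows, and TTCNNNGAA, a STAT motif found in 7.02%, were searched on both strands and were in none of the 9 RefSeq start windows of the 6 genes. CCAAT, present in 33.8% of windows, was in both windows of Bcl2l11 and in no window of the other 5 genes.

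Among the survival genes, Mcl1 and Bcl2l1 were found in most cells and Bcl2 in fewer. Bcl2, the founding survival member, was detected in 50.7% of cells in 1A, 49.3% in 1B, 53.1% in 2A and 73.8% in 2B, a mean of 56.7% ± 11.5 (SD, n = 4 ids). Mouse 2B stood above the other 3, and its exact 95% interval (60.9 to 84.2%) overlapped only the upper ends of those of the others (the highest, 2A, 40.2 to 65.7%). At a level of at least 10 the ids lay close together, from 29.7% in 2A to 37.7% in 1B and 2B, so 2B differed in cells with low Bcl2 levels. The highest Bcl2 level in a cell was 809 in 1A, 237 in 1B, 635 in 2A and 405 in 2B, and the median level was 1.16, 0, 0.883 and 2.27 in the same order. These intervals cover counting error only, as do all others given for shares.

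Bcl2l1, whose long splice form is Bcl-xL, was detected in 71.6% of cells in 1A, 81.2% in 1B, 73.4% in 2A and 75.4% in 2B (75.4% ± 4.13, SD, n = 4). Its median level was 63.7 in 1A, 68.4 in 1B, 43.6 in 2A and 47.2 in 2B, with highest cells between 376 (2B) and 631 (1A). The matrix counts the gene as a whole, so the long and the short, death-promoting splice form are not separated. Mcl1, the short-lived survival member, was detected in 83.6% of cells in 1A, 92.8% in 1B, 82.8% in 2A and 80.3% in 2B (84.9% ± 5.44). Its median level was 26.5 in 1A, 49.7 in 1B, 50.8 in 2A and 26.5 in 2B, and its highest cells reached 394, 851, 663 and 665. For both genes the exact 95% intervals of the 4 ids overlapped.

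Bcl2l11, the BH3-only member, was the most uneven over the ids at a level of at least 10. It was detected in 50.7% of cells in 1A, 60.9% in 1B, 29.7% in 2A and 47.5% in 2B (47.2% ± 12.99), and at a level of at least 10 in 28.4%, 49.3%, 23.4% and 19.7%. Mouse 1B was highest by both measures. The lowest share belonged to 2A for any level and to 2B for levels of at least 10. By pool, Bcl2l11 was detected in 53.3% of cells in the first and 37.5% in the second. Within 2A it was 12 of 29 and 7 of 35 cells. Mice 1A and 1B lie in the first pool only and 2B in the second only, while 2A mixes both. A difference of 2B from 1A or 1B cannot be told apart from a difference between pools. Mice 1A and 1B share a pool, though most of their cells lie in different sets. On the plate and set that 2A and 2B share, within the second pool, Bcl2l11 was detected in 7 of 35 and 16 of 36 cells. A few cells held very high levels, with a highest cell of 435 in 1A, 839 in 1B, 1755 in 2A and 1083 in 2B against a median of 0.723, 7.79, 0 and 0.

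Of the pore formers, Bax was detected in nearly every cell and Bak1 at low levels in a minority. Bax was detected in 92.5% of cells in 1A, 100% in 1B, 93.8% in 2A and 95.1% in 2B (95.3% ± 3.27), at median levels of 73.8, 81.1, 65.1 and 61.5. In the set that holds most 1B cells, Bax had no repeated lowest value, and those cells were all counted as detected. Bak1 was detected in 16.4% of cells in 1A, 44.9% in 1B, 48.4% in 2A and 34.4% in 2B (36.1% ± 14.4), with 1A below the others. A Bak1 level of at least 10 was reached in 4 of 261 cells, 1 of 1A, 2 of 1B and 1 of 2A; in 2B it was 0 of 61 cells, and with 3 cells taken as the limit that a count of 0 allows, the share could be up to 4.92%. Across all features the median share of cells with detection was 57.9%, and by this share Bax stood at the 88.7th percentile, Mcl1 at the 76.5th, Bcl2l1 at the 66.3rd, Bcl2 at the 48.4th, Bcl2l11 at the 40.9th and Bak1 at the 31.1st, a ranking not corrected for transcript length.

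**Figure D1:**
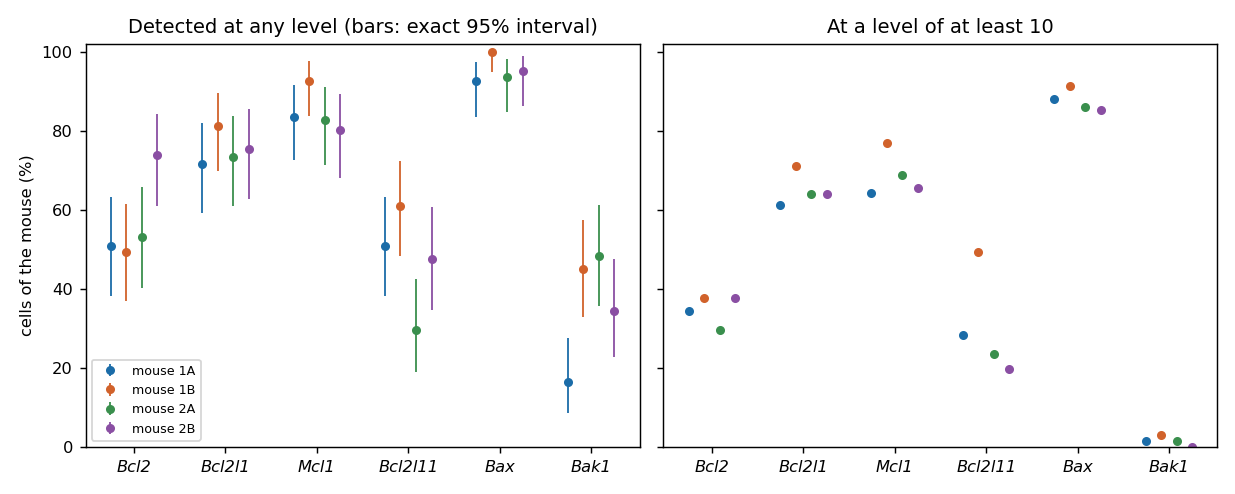
Share of cells (%) with each gene detected (left, points with exact 95% intervals) and with a level of at least 10 (right), by labelled mouse (n = 67, 69, 64 and 61 cells). Bcl2 in 2B (73.8%) stands above the other 3 ids on the left and among them on the right, and Bak1 nearly vanishes on the right.

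**Figure D2:**
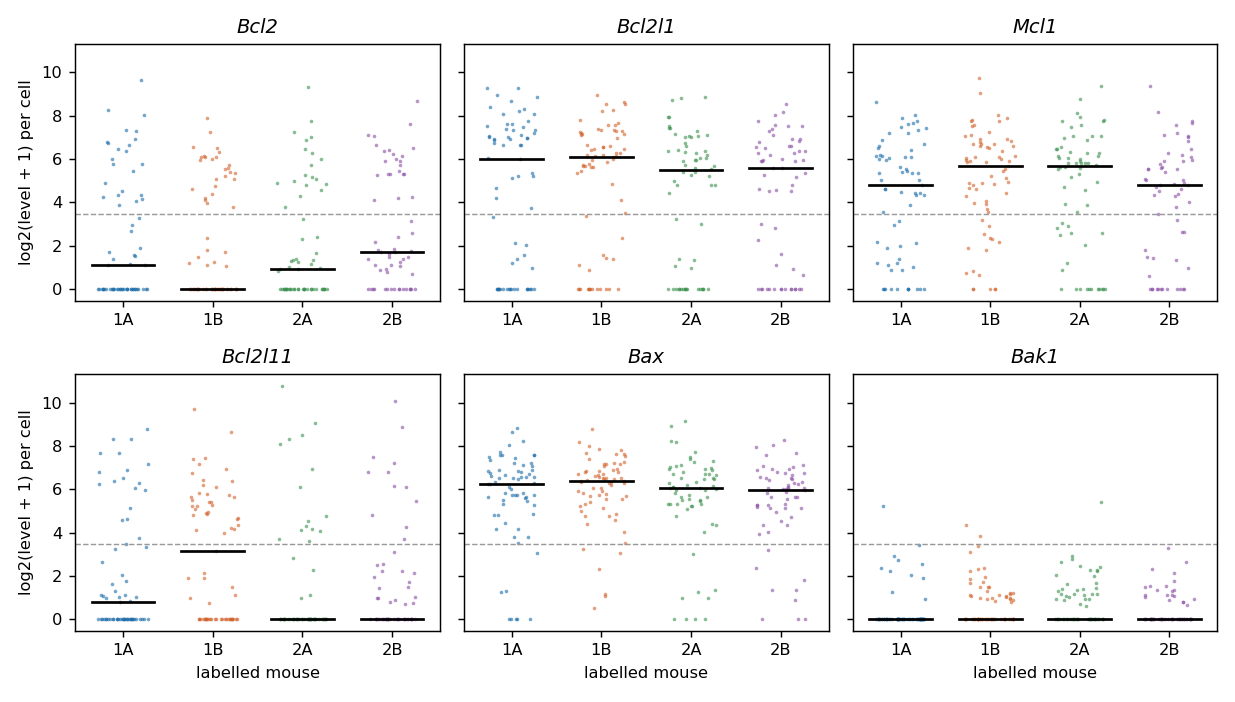
Level of each gene in every cell as log2(level + 1), by labelled mouse, with the horizontal offset of points random; black bars are medians and the dashed line marks a level of 10. Bax, Bcl2l1 and Mcl1 have medians well above the line in all 4 ids, while those of Bcl2, Bcl2l11 and Bak1 lie below it. The median level is at most 2.27 for Bcl2, 7.79 for Bcl2l11 (in 1B) and 0 for Bak1.

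Every cell held at least 1 of the 6 genes, and the median cell of each id held 4. All 6 were detected in 18 cells, 5 in 65, 4 in 93, 3 in 60, 2 in 23 and 1 in 2. Of the survival genes Bcl2, Bcl2l1 and Mcl1, 104 cells had all 3, 103 had 2, 48 had 1 and 6 had none. Bax or Bak1 was detected in 254 cells, both in 89, Bak1 without Bax in 5, and neither in 7. Bcl2l11 was detected in 124 cells, 120 of which also had at least 1 survival gene.

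No pair of the 6 genes passed the test for varying together from cell to cell. In each id, cells were ranked inside each combination of id, plate and set, and a partial Spearman correlation (rho) given the number of detected genes was computed; the 4 values were tested with limma, two-sided, with Benjamini-Hochberg adjustment over all 12447 genes tested. Mean rho over the 15 pairs ran from -0.13 (Bcl2l1 with Bcl2l11, negative in 4 of 4 ids) to 0.13 (Mcl1 with Bak1, positive in 3 of 4). Each pair was fitted with either gene as the reference. In limma 0 of 15 pairs passed at an adjusted p of 0.05 either way, and the smallest adjusted p was 0.636. An unadjusted p under 0.05 was reached by 3 pairs with one of the genes as the reference and by 1 of them, Mcl1 with Bak1, with both. Of all genes tested, 0.121% passed with Mcl1 and 0% with each of the other 5. Bcl2 and Bcl2l1 were detected together in 122 cells, on average in 47.04% of the cells of an id against 42.7% for the product of their shares. That excess of 4.30 ± 2.42 percentage points (SD, n = 4) was positive in 4 of 4 ids, and their rho, 0.131 ± 0.103, had an adjusted p in limma of 0.636 with Bcl2 as the reference and 0.963 with Bcl2l1. On average over ids both genes were found more often in cells with more detected genes. From the lowest to the highest tertile of that number, Bcl2 went from 50.8% to 67.4% and Bcl2l1 from 59.9% to 87.04% of cells. In 1B, however, the rho of Bcl2l1 with that number was -0.181, against 0.160 to 0.227 in the other ids. The part of depth in the excess was not tested.

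Bcl2 rose with the S-phase level, and it was the only one of the 6 genes to pass the test with a phase of the cell cycle. The S-phase level is the mean rank of a cell over 42 genes of DNA replication. In mouse 1A Bcl2 was detected in 9 of 23 cells in the lowest tertile of this level, 7 of 20 in the middle and 17 of 23 in the highest. In 1B it was 9 of 21, 10 of 22 and 13 of 21 cells, in 2A 6 of 21, 11 of 19 and 15 of 21, and in 2B 10 of 20, 17 of 21 and 18 of 20. The highest tertile stood above the lowest in all 4 ids, although the counting intervals of neighbouring tertiles overlapped in each. Averaged over ids the share was 40.1% ± 8.93, 54.8% ± 19.8 and 74.3% ± 11.7 (SD, n = 4), and 20.0%, 35.4% and 49.4% of all cells of a tertile reached a level of at least 10.

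The partial rho of Bcl2 with the S-phase level was 0.194 in 1A, 0.217 in 1B, 0.363 in 2A and 0.259 in 2B. Its mean was 0.260 ± 0.0748 (SD, n = 4) with an adjusted p of 0.0080 in limma over 12406 genes, positive in 4 of 4 ids. In that comparison 7.9% of all genes were called in either direction and 6.92% in the positive one, so the call is 1 among many. An exact sign-flip test over 4 ids cannot go below 0.125. The median number of detected genes also moved with the S-phase level, 7167, 7941 and 7983 from the lowest to the highest tertile, and Bcl2 itself had a mean rho of 0.199 with that number; given that number the rho was 0.260, and without the adjustment 0.315. In the 179 cells without markers of other types it was 0.285 with an adjusted p of 0.0188, while without mouse 1B it was 0.274 with an adjusted p of 0.0544, past the threshold no longer.

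The other members did not pass with the S-phase level. Bax had a mean rho of 0.125 ± 0.153, positive in 3 of 4 ids, and Bcl2l11 one of 0.0933 ± 0.195, from -0.146 in 2B to 0.273 in 1A. Bcl2l1 ranged from -0.281 in 1A to 0.270 in 2A around a mean of 0.0065, so its ids went in opposite directions. Mcl1 (-0.0365) and Bak1 (-0.0445) had 2 ids of each sign.

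With the G2M level, the same measure over 52 genes of mitosis, none of the 6 genes passed. Bcl2 had a mean rho of 0.00816 ± 0.0671, and its share by G2M tertile was 47.2%, 65.8% and 56.7%, highest in the middle. Bak1, at 0.112 ± 0.0674, was positive in 4 of 4 ids with an adjusted p of 0.456 in limma. In this comparison 0 of the 6 had an unadjusted p under 0.05, and 3.86% of all genes were called. For Bcl2 the G2M value minus the S-phase value was -0.258 on the Fisher z scale with an SE of 0.0940, negative in 4 of 4 ids, and its adjusted p of 0.0874 in limma did not pass, where 5.13% of all genes were called.

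**Figure D3:**
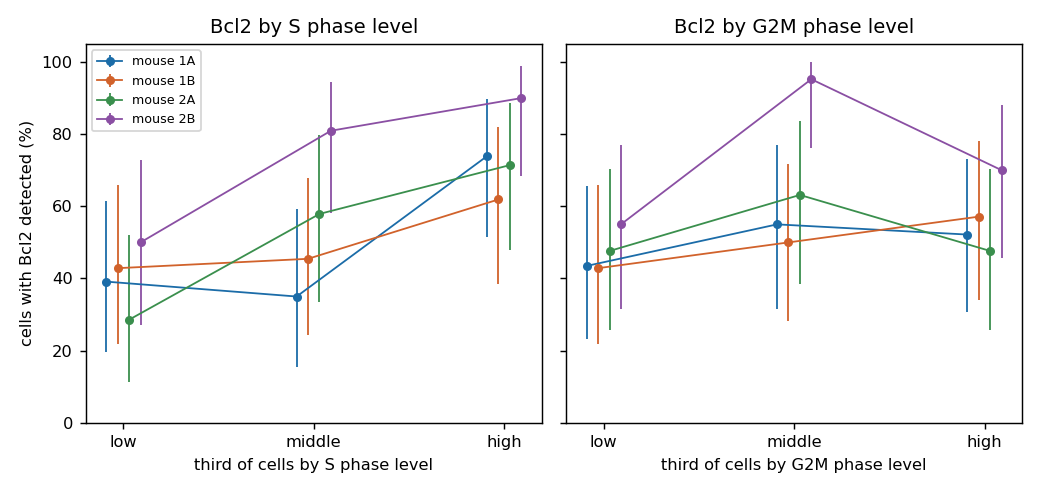
Share of cells (%) with Bcl2 detected in the low, middle and high tertile of S-phase level (left) and of G2M level (right), by labelled mouse; bars are exact 95% intervals for 19 to 23 cells per point. On the left every id is higher in the high than in the low tertile, and on the right the mean is highest in the middle tertile (65.8%).

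With Il7r, the receptor chain for interleukin-7, none of the 6 genes passed the test. Il7r itself was detected in 65.3% ± 4.91 of cells, and at a level of at least 10 in 35.2% ± 5.48. Bcl2 was detected in 57.9% ± 11.4 of cells without Il7r and in 55.5% ± 14.9 of cells with it, and Mcl1 in 85.7% ± 7.40 and 84.9% ± 6.84 (SD, n = 4). Mean rho over the 6 genes ran from -0.0679 (Mcl1) to 0.0888 (Bcl2l11), none with the same sign in 4 of 4 ids. In limma 0 of the 6 passed, 0 had an unadjusted p under 0.05, and the smallest adjusted p was 0.682, where 0.49% of all genes were called.

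With Kit, Mcl1 and Bcl2l11 pointed in opposite directions in all 4 ids without passing the test. Mcl1 was at a level of at least 10 in 57.8% of the cells in the lowest Kit tertile, 65.9% in the middle and 82.1% in the highest. Its rho was 0.194 in 1A, 0.0531 in 1B, 0.0896 in 2A and 0.278 in 2B, a mean of 0.155 ± 0.102 with an adjusted p of 0.194 in limma. Bcl2l11 was at that level in 43.4%, 23.5% and 21.4% of cells, most in the lowest Kit tertile. Bak1 was also negative in 4 of 4 ids, at a mean rho of -0.0675 (adjusted p 0.676 in limma), and Bcl2 (-0.0723), Bcl2l1 (0.0219) and Bax (0.00798) had ids of both signs.

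The rho of Bcl2l11 with Kit was -0.0526 in 1A, -0.122 in 1B, -0.316 in 2A and -0.153 in 2B, a mean of -0.163 ± 0.111 with an adjusted p of 0.164 in limma. It passed without the adjustment for detected genes (-0.198, adjusted p 0.0435) and with Pearson correlations of the deposited log2 values (-0.274, adjusted p 0.0352). In the cells without markers of other types it was -0.0365, with an adjusted p of 0.946. For the Il7r value minus the Kit value 5.47% of all genes were called and 0 of the 6. Kit had a mean rho of 0.371 with the number of detected genes and Bcl2l11 one of -0.120. In limma 0 of the 6 genes passed with Kit, 2 had an unadjusted p under 0.05, and 4.63% of all genes were called.

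With Il2rb, Mcl1 had a negative rho in all 4 ids and did not pass. Mcl1 was detected in 44 of 48 cells without Il2rb and 11 of 18 with it in 1A, 42 of 44 and 19 of 20 in 1B, 35 of 39 and 15 of 22 in 2A, and 21 of 26 and 28 of 35 in 2B. The shares were far apart in 1A and 2A and close in 1B and 2B. Cells counted as having Il2rb often held it at a low level. Over all cells Il2rb was detected in 18 of 67 in 1A, 25 of 69 in 1B, 22 of 64 in 2A and 35 of 61 in 2B. A level of at least 10 was reached in 9, 9, 9 and 2 of these cells. Its mean rho with Il2rb was -0.154 ± 0.0597 with an adjusted p of 0.534 in limma, and -0.108 in the cells without markers of other types. The Il2rb value minus the Kit value for Mcl1 was -0.311 on the Fisher z scale (SE 0.103), negative in 4 of 4 ids, with an adjusted p of 0.0814 in limma, where 3.07% of all genes were called and 0 of the 6. None of the other 5 genes had the same sign in 4 of 4 ids, 0 of the 6 passed and 1 had an unadjusted p under 0.05, and 0.426% of all genes were called with Il2rb.

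**Figure D4:**
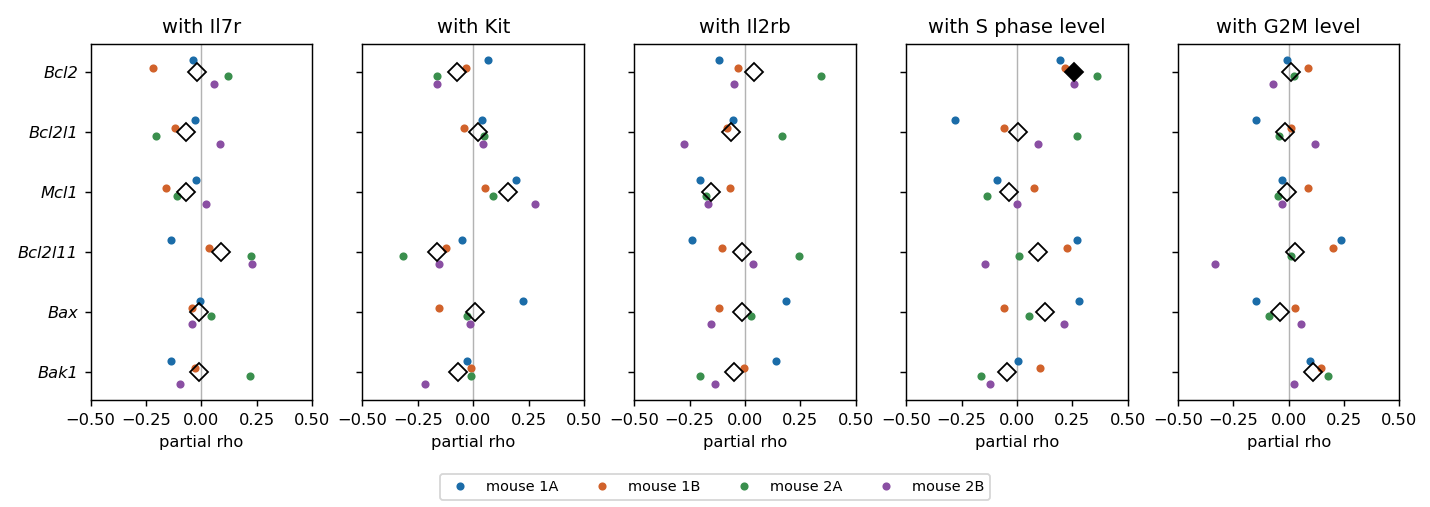
Partial rank correlation (rho, given the number of detected genes) of the 6 genes with Il7r, Kit, Il2rb, S-phase level and G2M level: small points are the 4 labelled ids, diamonds their mean, filled where the adjusted p in limma is under 0.05. The 1 filled diamond is Bcl2 with the S-phase level (0.260), and most other means lie within 0.16 of 0 with ids on both sides.

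Genes whose level was most like that of each member were taken by mean rho over the 4 ids. Mcl1 had 15 genes past the threshold in limma, all positive and in 4 of 4 ids, which is 0.121% of the genes tested. The highest were Ppp2ca, a catalytic subunit of protein phosphatase 2A, at 0.356 ± 0.178 (adjusted p 0.000370), Gnb1, a G-protein beta subunit, at 0.305, the small GTPase Rac1 at 0.295, the mRNA export factor Alyref at 0.294 and Btbd2 at 0.289. Ppp2ca ranged from 0.142 in 2A to 0.515 in 1A, and Alyref from 0.0059 in 2A to 0.475 in 1B, with 2A lowest for all 5. Leaving out an id lowered the number of calls: without 1A and without 1B none of the 15 passed, without 2A 6 did and without 2B 3 did. In the cells without markers of other types none did. Fewer ids or cells enter these fits, and the cause of the loss was not tested.

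The other 5 members had 0 genes past the threshold in limma, with 969 (Bcl2), 638 (Bcl2l1), 652 (Bcl2l11), 840 (Bax) and 579 (Bak1) of 12447 at an unadjusted p under 0.05. The 3 genes most like Bcl2, none of which passed, were Gm48445 (0.298), Rrm2, a subunit of ribonucleotide reductase that is itself in the S-phase list (0.290), and the nucleoside transporter Slc29a1 (0.268), with adjusted p of 0.0593, 0.0593 and 0.104. For Bax they were Odc1, the first enzyme of polyamine synthesis (0.294), and the replicative helicase subunits Mcm2 (0.287) and Mcm6 (0.281), each with an adjusted p of 0.0933. For Bcl2l1 they were Gm12285, Alox15 and Ltb4r1 (0.284 to 0.259), for Bcl2l11 Slamf7, Dis3l2 and Styx (0.250 to 0.239), and for Bak1 Cap1, Trim59 and Casz1 (0.254 to 0.230).

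The wider death and survival pathway was described with 67 listed genes, of which 57 were tested. With the S-phase level 6 of the 57 passed, all positive, which is 10.5% of the list against 7.9% of all genes in either direction and 6.92% in the positive one. They were Cycs (cytochrome c, 0.390), Casp8 (the initiator caspase of death receptors, 0.263), the mitochondrial channels Vdac3 (0.258), Vdac1 (0.256) and Vdac2 (0.225), and Trp53 (p53, 0.255). Without the cells with markers of other types, Cycs (0.382), Casp8 (0.262) and Vdac2 (0.271) still passed and the other 3 did not. Of the 6 genes 3 passed without 1A, 1 without 1B, 6 without 2A and 2 without 2B, with every rho positive, and Cycs was the gene that passed each time. The list of 15 apoptosome and caspase genes, which also holds the 3 Vdac channels, had a median rho of 0.160, and all genes 0.0209. Of these 15 genes 10 had a positive rho, while Apaf1 (-0.124) and Casp6 (-0.182) were among the negative ones. The medians of the other pathway lists ran from -0.0386 (Mcl1 protein turnover) to 0.0747 (other Bcl2 family).

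With Kit also 6 of 57 passed, all positive, or 10.5% against 4.63% of all genes in either direction and 3.78% in the positive one. The transcription factors Stat5a (0.401, adjusted p 1.43e-06), Stat5b (0.240) and Stat3 (0.236), which act downstream of cytokine receptors, passed together with Vdac1 (0.271), Trp53 (0.237) and the death ligand Fasl (0.213). Trp53 was positive in 3 of 4 ids and the other 5 in 4 of 4. Without the cells with markers of other types, 0 of these 6 passed in limma, with rho from 0.0943 for Trp53 to 0.282 for Stat5a, and 7 of all genes passed. Of the 6 genes 4 passed without 1A, 2 without 1B, 5 without 2A and 2 without 2B. Stat5a passed each time and Fasl at no time. With the G2M level 1 passed, Mdm4, an inhibitor of p53 (0.220). Mdm4 passed without 1A but not without 1B, 2A or 2B, nor without the cells with markers of other types (0.231, adjusted p 0.108 in limma). In limma none passed with Il7r or Il2rb. Of the other Bcl2 family genes, 10 of 17 were detected in enough cells to be tested, and none passed with any of the 5 measures. Among the 4 genes of Mcl1 protein turnover none passed either.

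The 6 genes had different detection shares in the cells with markers of other types. In the 26 cells with NK and ILC markers, Bcl2l11 was detected in 73.1% (exact 95% interval 52.2 to 88.4%) and Mcl1 in 61.5% (40.6 to 79.8%), against 44.5% (37.2 to 52.04%) and 88.5% (82.9 to 92.7%) of the 182 cells with none of these markers. In the 43 cells with dendritic markers Bcl2l1 was detected in 46.5% (31.2 to 62.3%), against 79.7% (73.1 to 85.3%). In the 13 cells with mast cell or basophil markers Bcl2l11 was detected in 2, or 15.4% (1.92 to 45.4%). In the 9 cells with macrophage markers Mcl1 was detected in all 9 and Bak1 in 0 of 9 (exact 95% interval up to 33.6%).

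Bax was detected in 88.9 to 96.7% of the cells of every one of these groups. The groups pool cells of 4 ids and are not replicates, so no test was made. Of the NK and ILC cells, 10 came from 2A, 9 from 1B, 6 from 1A and 1 from 2B. Among them Mcl1 was detected in 4 of 6 cells in 1A, 7 of 9 in 1B, 4 of 10 in 2A and 1 of 1 in 2B. In the cells with none of these markers it was 37 of 41, 47 of 50, 36 of 40 and 41 of 51. The cells with other markers also had fewer detected genes, a median of 6812 (NK and ILC), 6949 (dendritic), 6863 (mast cell or basophil) and 7254 (macrophage) against 7976 in cells with none. The part of depth in these shares was not tested.

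**Figure D5:**
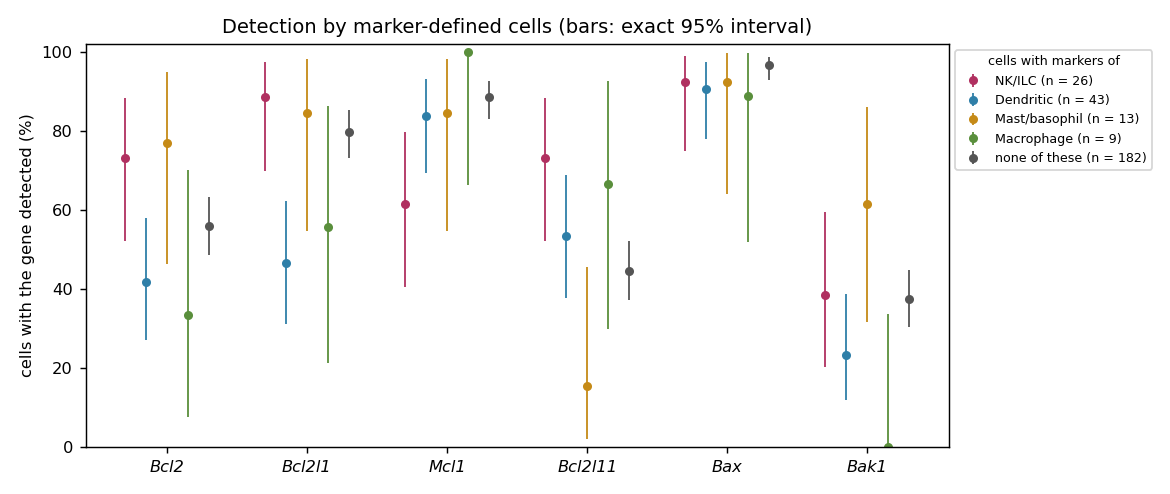
Share of cells (%) with each gene detected, in cells carrying markers of NK and ILC (n = 26), dendritic (n = 43), mast or basophil (n = 13) or macrophage cells (n = 9) and in cells with none (n = 182); bars are exact 95% intervals. In NK and ILC cells Mcl1 is at 61.5% against 88.5% in the cells with none, and Bcl2l11 at 73.1% against 44.5%. In dendritic cells Bcl2l1 is at 46.5% against 79.7%, while Bax is at 88.9 to 96.7% in every group. The bars cover counting error only and each group pools cells of 4 ids, so they are no test.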

How the data were processed

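The authors deposited 1 matrix of log2 expression values for 261 of the 300 labelled cells (the other 39 were not analysed here); every value column matched a cell title. Per the submitters' processing notes, Salmon and GRCm38 were used, with no versions given; what scaled the values for depth, corrected them and filtered cells the sources used here do not give. Read depth per cell is unknown and detected genes stood in for it. Cells were joined to a set where they shared over 5% of exact values (at least 14.2% within sets, 0% between), and a gene was detected where its value exceeded the set's repeated lowest value by more than 1e-06. The labelled mouse was the unit. Ranks were taken inside 8 combinations of mouse, plate and set with at least 5 cells (252 cells, 9 left out), partial correlations were given the rank of detected genes, and Fisher z values were tested with limma 3.58.1 (R 4.3.3, intercept only, two-sided, Benjamini-Hochberg, 0.05). The steps were run on simulated data in which planted genes had no ties and depth was shuffled. That run does not cover ties at no reads in associated genes or the adjustment for depth. The phase-list genes were left out where their own level was the reference. In most fits limma gave all genes 1 pooled error, so p did not then measure a gene's own spread. Python 3.11.15 and scipy 1.17.1 were used otherwise; intervals are Clopper-Pearson, and a count of 0 was given a limit of 3 cells. No doublet caller was run on these sorted cells. IDs were matched to GENCODE vM21 symbols (13578 of 13737). Named genes were the 6 members, for each member the 5 highest and 3 lowest genes past the threshold with 1 sign in 4 of 4 mice (else the 3 highest), and list genes past the threshold, up to 8 a list. Members and lists were chosen with earlier results of these data known. An item of these lists is not reported here. Alternatives were no depth covariate, plate as covariate, sets as units, Pearson correlations, no filter, low levels set to no reads, cells left out and each mouse left out.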

Additional observations from a re-analysis of the deposited data

Results flagged for a closer look

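In 57 sets of 4 ids, 1 value per id, the highest or lowest id was checked for standing far from the others relative to the whole range, and 6 sets had such an id; chance alone gives some, at 1 in 20 sets. The share of cells with Bcl2 in mouse 2B, 73.8%, stood against 49.3 to 53.1% in the others; within 2B it was 27 of 36 cells on 1 plate and 18 of 25 on the other, and 19 of 35 in the 2A cells on the first of these plates, in the same set. The rho of Bcl2l1 with Kit was -0.0407 in 1B against 0.0375 to 0.0486 elsewhere. For Bak1 with Kit it was -0.217 in 2B against -0.0300 to -0.00877. For Mcl1 with the G2M level it was 0.0857 in 1B against -0.0481 to -0.0303. Between Bcl2 and Bak1 it was -0.249 in 1A against 0.0305 to 0.0450, and between Bcl2l11 and Bax -0.0954 in 2B against 0.000924 to 0.0157. The genes were chosen with earlier results of these data known, and the cause of these values was not tested.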

How the results depend on the processing

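Bcl2 with the S-phase level passed in 11 of 12 alternatives (rho 0.197 to 0.315, adjusted p 0.000146 to 0.0544); leaving out 1 mouse in turn gave 0 to 1 of 6 members called with it, 0 without 1B. Over 343 combinations of another result and an alternative, 56 changed sign and 2 passed the threshold, both Bcl2l11 with Kit. The number of members called with Kit became 1 with no depth covariate and 1 with Pearson correlations, as did the number differing between Il7r and Kit (from 0). With no depth covariate, genes called rose to 193 (Il7r, from 61), 2176 (Kit, from 576), 112 (Il2rb, from 53), 3364 (S phase, from 980), 2494 (G2M, from 478), 39 (Bcl2, from 0) and 1 (Bcl2l1, from 0). Without cells with markers of other types they fell to 0 (Il7r), 7 (Kit), 1 (Il2rb), 463 (S phase), 301 (G2M) and 0 (Mcl1, from 15). With sets as units there were 37 (Il7r), 1 (Mcl1) and 2 (Bcl2); with Pearson correlations 12 (Il2rb), 1 (Bcl2) and 2 (Bax, from 0); with low levels set to no reads 15 (Il7r) and 4 (Il2rb), where Bak1 gave no value because it failed the filter. Without the first 8 wells of each set there were 33 (Il7r), 1 (Il2rb), 1 (Bcl2l1) and 8 (Mcl1), and with plate as covariate 9 (Mcl1) and 1 (Bcl2l11, from 0). Leaving out 1 mouse in turn gave 3 to 30 (Il7r), 276 to 383 (Kit), 18 to 79 (Il2rb), 448 to 1406 (S phase), 0 to 6 (Mcl1), 0 to 1 (Bcl2), 0 to 1 (Bcl2l1) and 0 to 4 (Bax). Fewer mice or cells enter those fits; the cause of the other shifts was not tested. At a level of at least 10 the mean shares became 34.9% (Bcl2), 65.1% (Bcl2l1), 68.8% (Mcl1), 30.2% (Bcl2l11), 87.6% (Bax) and 1.49% (Bak1). No paired analysis was possible because the labels give 1 group only.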

Other observations

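Detection of the 6 genes followed the number of detected genes to different degrees. From the lowest to the highest tertile of that number (median 6813 and 8497 detected genes), Mcl1 went from 67 of 85 to 78 of 85 cells, Bax from 88.4% to 98.9% and Bak1 from 33.2% to 39.6%, while Bcl2l11 went the other way, from 54.2% to 41.9%. The mean rho of Bcl2l11 with that number was -0.120, from -0.310 in 2A to 0.0687 in 1A, a description without a test.

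Of the 2 ids that share sets 2 and 4, 2A had Bcl2l11 in 7 of 35 cells in set 2 and 9 of 26 in set 4, and 2B in 16 of 36 and 13 of 25. Bak1 stood in the opposite order, with 19 of 35 and 11 of 26 cells in 2A and 13 of 36 and 8 of 25 in 2B. In set 2 the cells of both ids came from the same plate and pool. In set 4 they came from different plates and pools, so id, plate and pool cannot be told apart there. In 1A, Bak1 was detected in 12.8% of the 47 cells on its larger plate and in 28.6% of 14 cells on the other, both in set 3.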
